A study of Homo sapiens with 64 samples.

Results

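The RNAs described here are 9 long noncoding RNAs given as a list of symbols: the nuclear transcripts NEAT1 and MALAT1, and the snoRNA hosts GAS5, SNHG1, SNHG5, SNHG8, SNHG12, ZFAS1 and EPB41L4A-AS1. The rows of the count files were found by matching each symbol to its Ensembl identifier, which gave 8 of the 9 RNAs among the 54127 genes listed; SNHG8 (ENSG00000269893) was not analysed here. The measurements were gene-level RNA-seq counts from 6 established human colorectal cancer lines, and of the 64 samples 48 were sorted and 16 were unsorted controls. HT55 and SW948 stand for the colon cancer subtype CCS1, RKO and SW48 for CCS2, and DLD1 and HCT15 for CCS3, so that each subtype rests on 2 lines and each line is a single established culture. All cells grew as nonadherent spheroids in serum-free medium with bFGF and EGF. For the sorted samples, cells of each line had been stained with CFSE, a dye whose signal drops as cells divide, and were sorted by flow cytometry into label-retaining cells (LRCs, the dye-bright fraction) and non-LRCs (the bulk fraction), with 4 samples of each per line. The sort took place 6 days after staining. The controls were unsorted DLD1 cells, 4 samples each of unlabeled cells (given DMSO per the labels) and CFSE-labeled cells, at day 1 and at a later time that the labels call day 5 and the study's design text calls day 6. Day 5 is used below. The study's methods call all experiments biological quadruplicates, while the labels do not say from which cultures the 4 samples of a group came, and p-values measure the spread between these samples.

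NEAT1 is the architectural RNA of paraspeckles, nuclear bodies in which it binds proteins such as SFPQ and NONO, and MALAT1 is an abundant RNA of nuclear speckles, where splicing factors gather. The snoRNA hosts carry small nucleolar RNAs in their introns, which are released by splicing and guide the chemical modification of ribosomal RNA, while the spliced exons of several hosts are exported and degraded by nonsense-mediated decay when they are translated. Several host genes begin with a terminal oligopyrimidine (TOP) tract, the feature that also opens the mRNAs of ribosomal proteins and translation factors and ties their translation to growth signals.

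The starts of the 6 hosts with counts are shown because the TOP tract is the sequence feature for which this family is known. Each line gives the 60 bases around the RefSeq start of a host, 30 before it and 30 from it on, in the direction of transcription in the GRCh38.p14 assembly. Capitals mark a C followed by at least 4 pyrimidines within 10 bases of the start.
SNHG12 (chr1:28581844-28581903, minus strand): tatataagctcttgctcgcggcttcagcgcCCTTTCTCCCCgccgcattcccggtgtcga
SNHG5 (chr6:85678704-85678763, minus strand): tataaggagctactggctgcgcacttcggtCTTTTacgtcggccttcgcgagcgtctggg
ZFAS1 (chr20:49278612-49278671, plus strand): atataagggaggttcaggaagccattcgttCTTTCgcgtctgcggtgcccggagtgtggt
SNHG1 (chr11:62855856-62855915, minus strand): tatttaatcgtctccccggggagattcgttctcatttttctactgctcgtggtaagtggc
GAS5 (chr1:173869016-173869075, minus strand): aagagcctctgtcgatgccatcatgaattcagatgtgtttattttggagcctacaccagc
EPB41L4A-AS1 (chr5:112160496-112160555, plus strand): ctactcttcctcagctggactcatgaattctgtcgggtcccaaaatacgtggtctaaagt
The run began exactly at the annotated start in SNHG12, where it was 11 bases long, and in SNHG5 and ZFAS1, where it was 5 bases long. Such a run at the start was present in 3 of the 9 windows for members (MALAT1 had 2 windows, and the NEAT1 start is not used here), in 4 of 15 windows for other snoRNA-host lncRNAs, and in 4.1% of all 35116 RefSeq promoter windows. Within 10 bases of the start it was in 5 of the 9 windows, in 11 of the 15 for other hosts and in 33.5% of all. TATAA, searched on the sense strand 35 to 21 bases before the start after the sequences had been seen, was in 5 of the 9 windows (SNHG12, SNHG8, SNHG5, ZFAS1 and 1 of the MALAT1 windows), in 2 of the 15 for other hosts and in 3.6% of all. CACGTG, which reads the same on both strands, was in none of the 9 windows of 300 bases, in 2 of the 15 for other hosts and in 7.3% of all. These are matches of letters in a window around a single annotated start, and say nothing of which factor is bound or of starts outside it.

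The positions of the genes are given on GRCh37, the build of the counts, from a GENCODE annotation that may differ from the one used for counting. NEAT1 (ENSG00000245532) lies at chr11:65190245-65213011 on the plus strand and MALAT1 (ENSG00000251562) downstream of it at chr11:65265111-65275544 on the same strand. SNHG1 (ENSG00000255717) lies at chr11:62619450-62623425, minus strand. The other hosts are GAS5 (ENSG00000234741, chr1:173827697-173838020, minus), SNHG5 (ENSG00000203875, chr6:86360209-86388650, minus), SNHG12 (ENSG00000197989, chr1:28905050-28909644, minus), ZFAS1 (ENSG00000177410, chr20:47894715-47916137, plus) and EPB41L4A-AS1 (ENSG00000224032, chr5:111496223-111500515, plus). Exons of SNHG12 overlap the protein-coding gene TRNAU1AP on the opposite strand, those of ZFAS1 overlap ZNFX1, and those of EPB41L4A-AS1 overlap EPB41L4A. The strand setting of the counting is not given in the sources used here, and without strand the reads of such partners cannot be told apart. SNHG5 also overlaps the pseudogene PKMP3 on its own strand, so that reads there could be split. The snoRNA rows analysed here lie in 4 of the hosts. Over all 64 samples SNORD78 of GAS5 had 644 counts, SNORD99 of SNHG12 had 494, SNORA13 of EPB41L4A-AS1 had 146, and the 3 SNORD12 rows of ZFAS1 had 984 together. SNORD78, SNORA13, SNORD12 and SNORD12B touch an annotated exon of their host, so that reads there could be shared with the host.

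Counts on genes ranged from 12237225 to 20913455 per sample, with a median of 15063858. Reads outside annotated genes were 5.19 to 14.8% and mitochondrial reads 2.61 to 14.2% of a sample. The epithelial markers EPCAM, KRT8, KRT18, KRT19 and CDH1 were lowest in RKO non-LRCs, where KRT19 and CDH1 averaged 0.818 and 0.93 CPM (counts scaled to a common library size). Of the markers of other cells, CD3E had 0 counts in the 64 samples, COL1A2 had 12 counts, and PTPRC reached a group mean of 15.6 CPM in SW48 non-LRCs. COL1A1 had its highest group mean in SW948-LRCs, at 9.25 CPM. LYZ, which encodes lysozyme, had group means from 0.506 to 1370 CPM, the highest in SW948 non-LRCs. Of the 64 libraries, 4 of the 48 sorted and 1 of the 16 controls were closer in their expression profile to another group than to their own. They were HT55 non-LRC replicate 2, SW948 LRC replicate 4, HCT15 non-LRC replicate 2 and HCT15 LRC replicate 4, each closer to the other population of its line, and the library labelled unlabeled day 1 replicate 4, whose mean correlation was 0.989 with the day 5 group and 0.975 with its own. Both SW48 samples numbered 2 were low in 4 hosts, and RKO LRC replicate 3 was low in NEAT1 and MALAT1. Fits of a single line and of the controls were repeated without each of these libraries. The fits across lines were repeated without both SW48 samples numbered 2 or without RKO LRC replicate 3. They were not repeated without any of the other 4 sorted libraries alone.

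Levels below are CPM after TMM scaling over the 64 samples. In the non-LRCs, NEAT1 was highest in SW48 at 1060 ± 373 CPM (SD, n = 4) and lowest in RKO at 81.4 ± 10.5 CPM, a 13-fold range, and both lines stood clear of the other 4, which overlapped each other between 188 and 226 CPM. MALAT1 varied least among the members over the lines, from 355 ± 85.9 CPM in HT55 to 178 ± 21.7 CPM in DLD1, a 1.99-fold range in which each line overlapped its neighbour in the order. SNHG5 spanned a 10-fold range, from 321 ± 39.3 CPM in RKO to 32.0 ± 2.9 CPM in HCT15, with DLD1 and HCT15 each clear of the lines above them. RKO also led in GAS5 (635 ± 97.7 CPM) and ZFAS1 (361 ± 51.6 CPM), and HCT15 was lowest in both, at 170.3 ± 22.6 and 63.2 ± 1.78 CPM. SNHG1 was highest in SW948 (134 ± 9.66 CPM, overlapping SW48) and lowest in HT55 (28.9 ± 7.07 CPM), SNHG12 was highest in SW48 (26.1 ± 6.36 CPM), and EPB41L4A-AS1 was highest in SW48 (98.9 ± 43.2 CPM) and lowest in HCT15 (20.95 ± 3.59 CPM). RKO was thus lowest in NEAT1 and SNHG12 and highest in GAS5, SNHG5 and ZFAS1 by mean level.

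**Figure D1:**
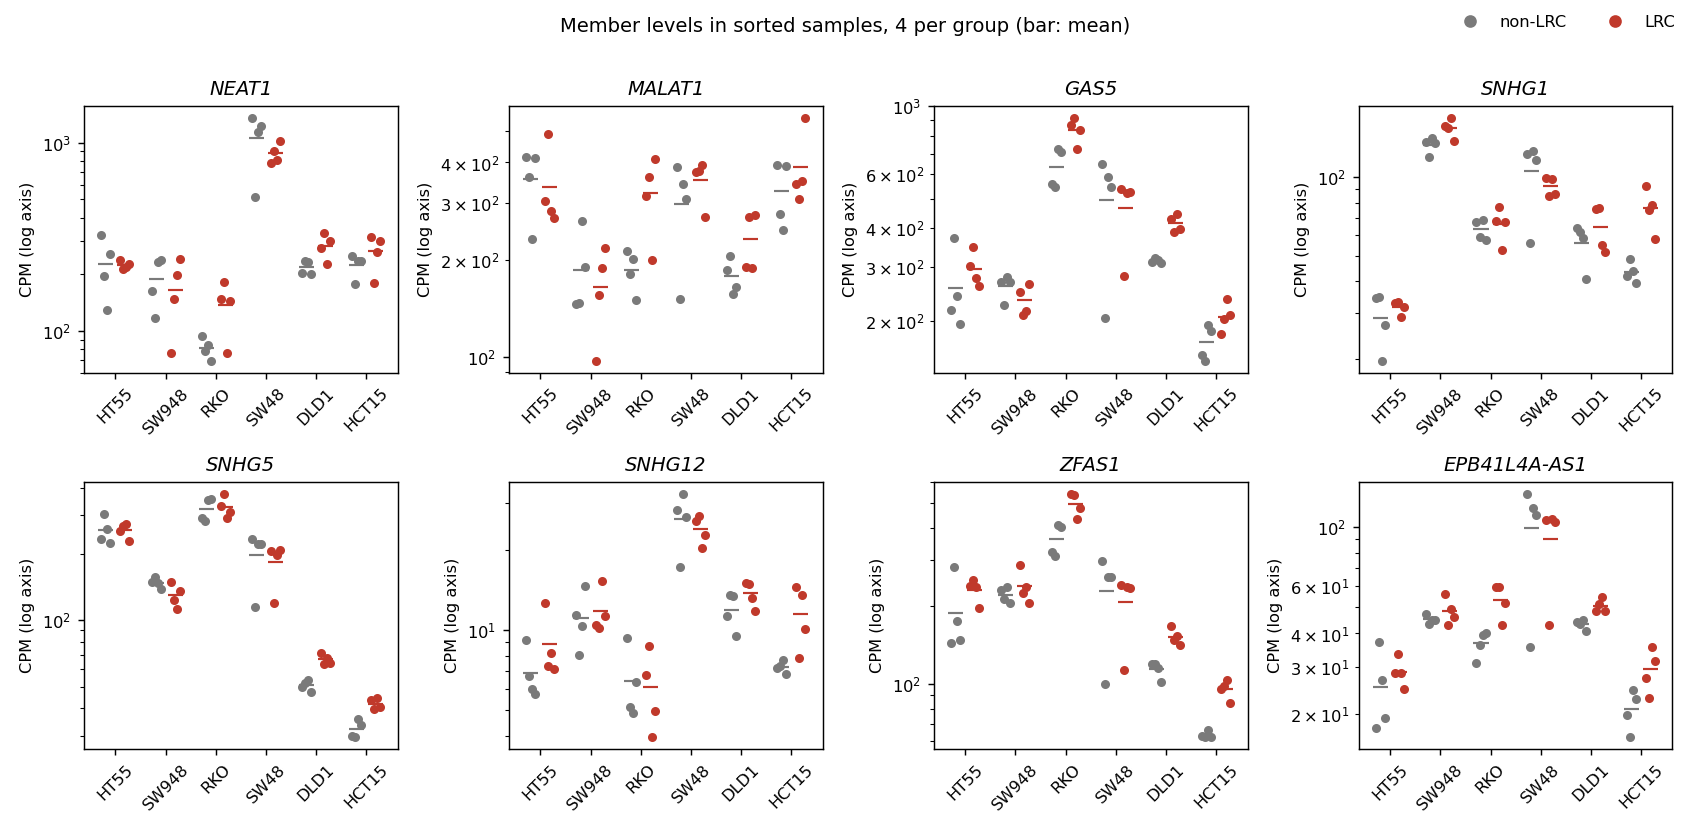
CPM of the 8 counted lncRNAs on a log axis in the 48 sorted samples, by line and population, with 1 point per sample. NEAT1 stands highest in SW48 (1060 CPM on average in non-LRCs). LRC and non-LRC points do not overlap for GAS5, SNHG5, ZFAS1 and EPB41L4A-AS1 in DLD1 or for SNHG1, SNHG5, SNHG12 and ZFAS1 in HCT15. The same holds for ZFAS1 and EPB41L4A-AS1 in RKO. Among all tested genes the populations do not overlap in 21% in DLD1, 10.4% in HCT15 and 36.9% in RKO.

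The first question was whether LRCs and non-LRCs differ in these RNAs within a line, tested with edgeR's quasi-likelihood test over all genes at a Benjamini-Hochberg adjusted p of 0.05. In bulk samples, fewer cells that express a gene and less RNA per cell cannot be told apart. RKO-LRCs had more NEAT1, MALAT1, GAS5, ZFAS1 and EPB41L4A-AS1, DLD1-LRCs more NEAT1, GAS5, SNHG5, ZFAS1 and EPB41L4A-AS1, and HCT15-LRCs more SNHG1 and ZFAS1. None of the 8 counted members passed the test in HT55, SW948 or SW48. Called members were 5 of 8 in RKO, where 20.4% of all tested genes were called higher and 21% lower, 5 of 8 in DLD1, where 6.67% were called higher, and 2 of 8 in HCT15, where 0.728% were. RKO-LRC samples had a median of 9.67% mitochondrial reads against 5.27% in the non-LRCs, and of 9.32% reads outside genes against 7.04%. LRC replicate 3 was the lowest LRC sample in both, at 7.01% and 7.19%. The part of either in the result was not tested.

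NEAT1 in RKO measured 147, 181, 76.7 and 144 CPM in the LRC samples and 94.3, 77.8, 84.02 and 69.4 CPM in the non-LRCs. All LRC samples but replicate 3 lay above every non-LRC sample. NEAT1 rose in RKO-LRCs with a log2 fold change of 0.73 (SE 0.18, adjusted p = 0.00377). Leaving out each library in turn gave 0.57 to 0.93 on the log2 scale, and the call was kept each time. The highest value was the one without LRC replicate 3, a library singled out for its low NEAT1 and MALAT1. MALAT1 in the same samples measured 316, 360.0, 199.5 and 409.6 CPM against 213, 181, 201 and 150.4 CPM. Again replicate 3 was the lowest LRC sample and the only one within the non-LRC range. MALAT1 rose with a log2 fold change of 0.76 (SE 0.16, adjusted p = 0.00151). With each library left out in turn its value was 0.63 to 0.94, the highest again without LRC replicate 3, and the call was kept.

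In DLD1, NEAT1 measured 275, 333, 228 and 299.6 CPM in LRCs and 204, 236, 233 and 199.8 CPM in non-LRCs. LRC replicate 3 lay inside the non-LRC range and the other 3 above it. The rise of NEAT1 had a log2 fold change of 0.39 (SE 0.10, adjusted p = 0.0302), and the call was lost when any one of 5 libraries was left out (LRC replicates 1, 2 and 4 and non-LRC replicates 1 and 4), with an adjusted p between 0.0504 and 0.093. MALAT1 in DLD1 measured 189.8, 272, 188 and 276 CPM against 186, 205, 157 and 165 CPM, with 2 LRC samples above all non-LRCs. Its log2 fold change of 0.39 (SE 0.14, adjusted p = 0.0822) did not pass. It did in 4 of 15 alternatives, which were the fit with the replicate number as a block (0.37, adjusted p = 0.000107), DESeq2 (0.39, adjusted p = 0.0383), no filter on low counts (0.37, adjusted p = 0.00751) and leaving out LRC replicate 1 (0.47, adjusted p = 0.0485).

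In SW48, the line with the highest NEAT1, the values were 780.1, 909, 806 and 1024 CPM in LRCs and 1354, 516, 1145 and 1224 CPM in non-LRCs. The non-LRC samples lay above the LRCs except replicate 2, which was the lowest of all 8. NEAT1 had a log2 fold change of -0.27 (SE 0.24, adjusted p = 0.683) over the 8 samples. Without both samples numbered 2, an alternative chosen after the data were seen, NEAT1 was lower in SW48-LRCs, with a log2 fold change of -0.52 and an adjusted p of 0.0261. SNHG1 was then also lower (-0.37, adjusted p = 0.031), so that 2 of 8 members were called where 3.84% of genes were, against 0 of 8 members and 0.796% of genes over all the samples. Mitochondrial reads had a median of 14.1% in SW48-LRCs and 10.7% in the non-LRCs, and the part of this was not tested. In HT55, SW948 and HCT15 the NEAT1 values of both populations overlapped, and HCT15-LRCs read 315, 181, 263 and 302 CPM against 251, 177, 237 and 237 CPM.

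Among the hosts, ZFAS1, named for the antisense of ZNFX1 and host of SNORD12 family members, was called in all 3 of the lines that had calls. In DLD1 it measured 167, 147, 152 and 140.4 CPM in LRCs and 119, 119, 115 and 102 CPM in non-LRCs, and in HCT15 94.9, 98.1, 103 and 83.8 CPM against 62.5, 62.2, 65.9 and 62.4 CPM. In RKO it measured 539, 534, 433 and 477 CPM against 322, 311, 409 and 402 CPM. Each LRC sample was above each non-LRC sample in all 3 lines. The rise was a log2 fold change of 0.43 (SE 0.07, adjusted p = 0.00328) in DLD1, and a log2 fold change of 0.60 (SE 0.08, adjusted p = 0.0194) in HCT15. In RKO it was a log2 fold change of 0.43 (SE 0.10, adjusted p = 0.00331). In HT55, where non-LRC replicate 2 stood apart, ZFAS1 read 237.7, 250.3, 236 and 197 CPM in LRCs and 143, 282, 175 and 148 CPM in non-LRCs, and the highest value of the 8 was that non-LRC sample. The log2 fold change of 0.30 (SE 0.20, adjusted p = 0.773) did not pass over the 8 samples, and without that library ZFAS1 was called at 0.58 with an adjusted p of 0.00873, as was GAS5 at 0.45 with 0.0445. Over the 8 samples 0% of all genes were called in HT55, and the share in the refit without that library is not given here.

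GAS5, the growth arrest-specific host of a series of box C/D snoRNAs, measured 429, 390.0, 445 and 398 CPM in DLD1-LRCs and 309.6, 319, 316 and 309 CPM in the non-LRCs. The non-LRC samples lay within 10 CPM of each other and below every LRC sample. GAS5 rose with a log2 fold change of 0.42 (SE 0.05, adjusted p = 0.00142), and kept its call when each library was left out in turn. In RKO it measured 866, 915, 723 and 839 CPM against 557, 545, 727 and 712 CPM, where LRC replicate 3 fell inside the non-LRC range, and rose with a log2 fold change of 0.37 (SE 0.11, adjusted p = 0.0112). SNHG5, host of U50 snoRNAs, measured 71.3, 63.3, 67.3 and 63.97 CPM in DLD1-LRCs and 49.9, 52.03, 53.5 and 47.1 CPM in non-LRCs, again without overlap, with a log2 fold change of 0.40 (SE 0.06, adjusted p = 0.00228). In HCT15 the SNHG5 values of 43.3, 39.6, 44.4 and 40.4 CPM and 29.8, 29.6, 35.5 and 33.4 CPM did not overlap either, but its log2 fold change of 0.40 (SE 0.09, adjusted p = 0.0625) missed the threshold. EPB41L4A-AS1, which hosts SNORA13, was above every non-LRC in all LRC samples of RKO (59.6, 59.5, 43.01 and 51.9 against 30.9, 36.2, 39.6 and 40.1 CPM) and of DLD1 (48.3, 51.7, 54.5 and 48.3 against 43.99, 43.2, 44.9 and 40.8 CPM). It rose in RKO with a log2 fold change of 0.52 (SE 0.11, adjusted p = 0.00138), and in DLD1 with a log2 fold change of 0.24 (SE 0.06, adjusted p = 0.0203). The DLD1 call was lost without LRC replicate 3 or non-LRC replicate 1 or 4, at an adjusted p of 0.0521 to 0.0549.

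SNHG1 and SNHG12 had their clearest difference in HCT15. SNHG1, host of SNORD22 and SNORD25 to SNORD31, read 92.4, 75.04, 78.3 and 58.03 CPM in LRCs and 41.7, 48.5, 43.8 and 39.3 CPM in non-LRCs. All LRC samples were above all non-LRCs, and the rise was a log2 fold change of 0.82 (SE 0.13, adjusted p = 0.0316). SNHG12 was a low transcript there, at 14.6, 7.83, 13.5 and 10.1 CPM and 7.18, 7.30, 7.72 and 6.83 CPM. Its groups did not overlap, but the log2 fold change of 0.68 (SE 0.19, adjusted p = 0.118) missed the threshold. In RKO, SNHG1, SNHG5 and SNHG12 were near 0, at log2 fold changes of 0.05, 0.002 and -0.08. The calls of SNHG1 and ZFAS1 in HCT15 were both lost when any one of 6 libraries was left out (LRC replicates 1, 2 and 3, non-LRC replicates 1, 3 and 4), with SNHG1 between 0.71 and 0.83 on the log2 scale. They were kept without non-LRC replicate 2 or LRC replicate 4, the libraries of HCT15 that stood apart. In SW948, SNHG1 read 158, 155, 169 and 138 CPM against 136, 119.7, 142 and 136 CPM, and of the alternatives run it was called only without LRC replicate 4 (0.28, adjusted p = 0.0285). With all samples 0% of genes were called in SW948, and the share in the refit without that library is not given here.

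In HT55, SW948 and SW48, 0%, 0% and 0.796% of all genes were called, and DESeq2 called none of the 8 members in these lines either. At an unadjusted p under 0.05 the test returned 0, 2 and 0 members, beside 1005, 2350 and 1728 genes. In DLD1 and HCT15, where samples of the same number deviated together, the fit with the replicate number as a block called 7 of 8 members in each line, all higher, while it called 33.8% and 21.3% of all genes. The members added in HCT15 were NEAT1 (0.22, adjusted p = 0.0285), GAS5 (0.29, adjusted p = 0.00372), SNHG5 (0.40, adjusted p = 0.000823), SNHG12 (0.66, adjusted p = 0.00277) and EPB41L4A-AS1 (0.495, adjusted p = 0.000272). Those added in DLD1 were MALAT1, given above, and SNHG1 (0.21, adjusted p = 0.0065). In one fit of all 48 sorted samples, with one shared estimate of the spread, NEAT1 and MALAT1 in RKO and SNHG1 in HCT15 kept their calls and the other calls of these 3 lines were lost. Over all 6 lines, 10 of the 48 pairs of member and line had no overlap between populations, 4 each in DLD1 and HCT15 and 2 in RKO, each with the LRCs higher. Among all tested genes, 21% in DLD1, 10.4% in HCT15 and 36.9% in RKO had populations that did not overlap in either direction.

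Across the 6 lines in one fit, all 8 members had a positive log2 fold change and ZFAS1 alone was called, with a log2 fold change of 0.285 (SE 0.085, adjusted p = 0.0111). The background was 12.2% of genes called higher and 10.7% lower. SNHG1 followed with 0.20 (adjusted p = 0.0554) and EPB41L4A-AS1 with 0.23 (adjusted p = 0.0776), and SNHG5 had the smallest change, 0.08 (adjusted p = 0.417). In the fit with the replicate number as a block, 4 members were called higher where 25.5% of genes were called in either direction: ZFAS1 (0.30, adjusted p = 0.000396), EPB41L4A-AS1 (0.245, adjusted p = 0.00188), GAS5 (0.19, adjusted p = 0.0105) and SNHG1 (0.22, adjusted p = 0.0264). Samples of the same number deviated together in HT55, SW48, DLD1 and HCT15 but not in SW948 and RKO. Comparing samples of the same number, 8 of the 24 couples being from those 2 lines, LRCs were higher in 19 of 24 for ZFAS1 and for EPB41L4A-AS1, 17 for SNHG1, 16 for MALAT1, 15 for GAS5, NEAT1 and SNHG12, and 14 for SNHG5. The ZFAS1 call was lost when any one of RKO, DLD1 and HCT15 was left out (0.23 to 0.255, adjusted p = 0.0706 to 0.082), or the samples numbered 1 (0.24, adjusted p = 0.0955) or 3 (0.30, adjusted p = 0.0614). Without both SW48 samples numbered 2, 4 members were called higher, GAS5, SNHG1, ZFAS1 and EPB41L4A-AS1, where 23.0% of genes were called in either direction. The test for a difference between lines called SNHG1 (adjusted p = 0.0424), 1 of 8 members where 14.3% of genes were called, and that call was lost without the samples numbered 1, 3 or 4 (adjusted p = 0.164 to 0.469). With the block this test called 5 members where 33.6% of genes were called: SNHG1 (adjusted p = 0.00255), SNHG5 (0.000977), ZFAS1 (0.00498), EPB41L4A-AS1 (0.00809) and GAS5 (0.0116). SNHG1 ranged from 0.82 in HCT15 to -0.19 in SW48.

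**Figure D2:**
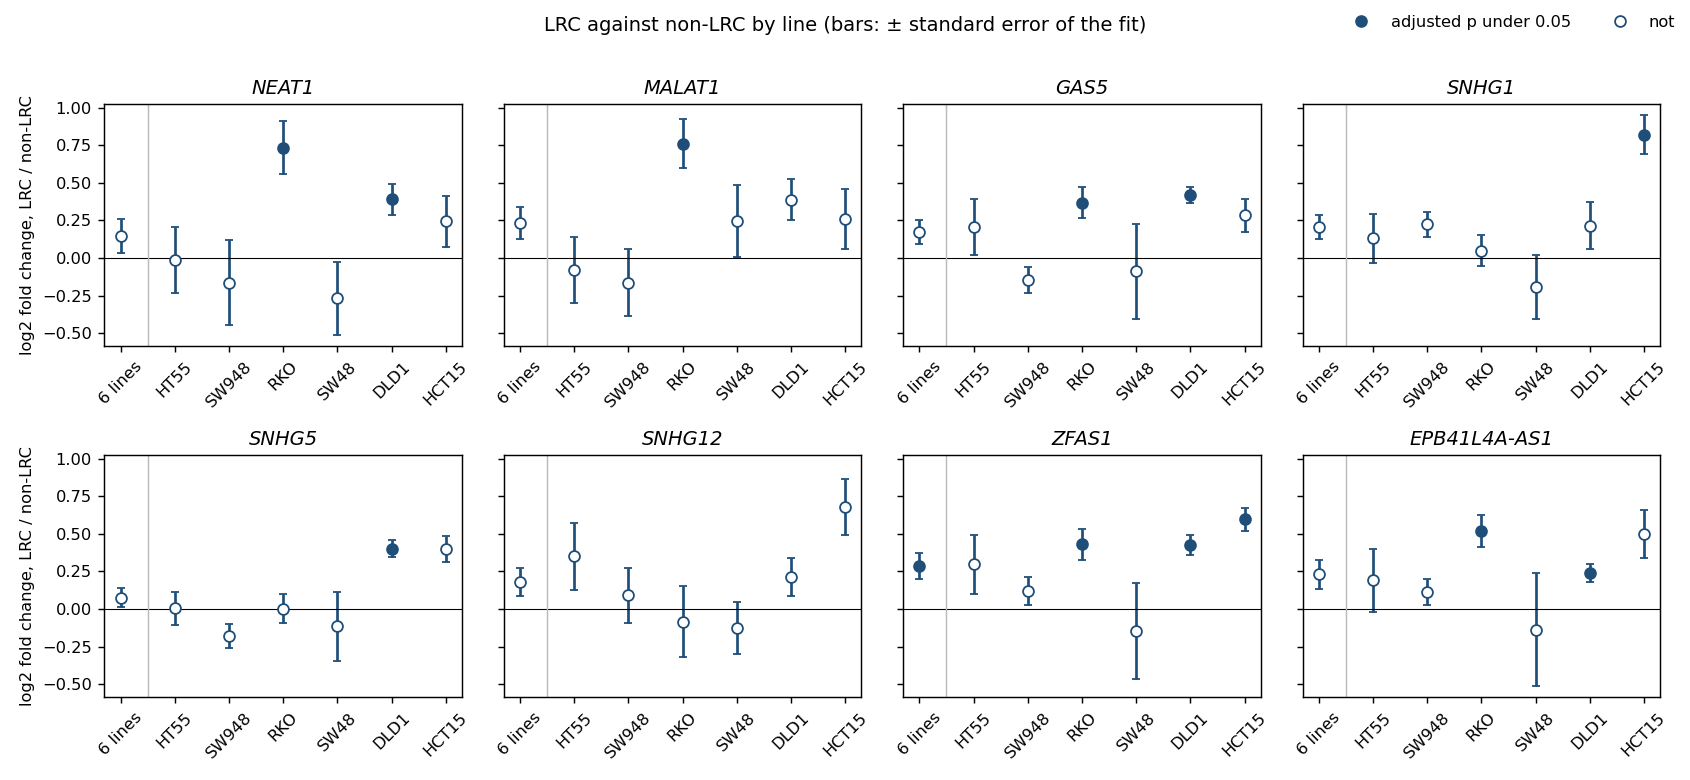
Log2 fold change of LRCs over non-LRCs with its standard error for the 8 members in each line and across the 6 lines, with members past an adjusted p of 0.05 marked. DLD1 and HCT15 have 8 of 8 positive values and SW48 has 1 of 8.

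The mRNAs of proteins that work with these RNAs were counted in the same fit, where 12.2% of genes were called higher and 10.7% lower. Of the mRNAs of 17 paraspeckle proteins 15 fell across the 6 lines and none rose, with a list median of -0.185 against 0.015 over all genes. Among them were the mRNAs of EWSR1 (-0.29), an RNA-binding protein, and of DAZAP1 (-0.33) and RBMX (-0.23), proteins that bind RNA and are found in paraspeckles. In RKO 16 of the 17 fell, and in DLD1 11 of 17, beside 21% and 7.89% of all genes called lower. In SW48 1 fell and in HT55, SW948 and HCT15 none, with list medians of -0.067 to -0.138 in these lines. There 0 to 0.977% of all genes were called in either direction. The test for a difference between lines called 8 of the 17, where 14.3% of genes were called. NEAT1 itself was called higher in RKO and DLD1. Of the mRNAs of 16 nuclear speckle proteins 3 rose and 5 fell, with those of the splicing factors SRSF1 (-0.44), SRSF3 (-0.31) and SRSF2 (-0.355) all lower.

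Of the mRNAs of 15 snoRNP proteins and assembly factors 10 fell and none rose across the lines, with a median of -0.15. They included those of the assembly ATPases RUVBL1 (-0.28) and RUVBL2 (-0.25) and the pseudouridine synthase DKC1 (-0.21). In RKO 12 of 15 fell and in DLD1 9 of 15, beside 21% and 7.89% of all genes called lower. None was called in HT55, SW948, SW48 or HCT15, where the list medians were -0.047 to -0.142. The test for a difference between lines called 4 of the 15, where 14.3% of genes were called. Of 15 tested other snoRNA-host lncRNAs only SNHG3 was called across the lines, and it fell (-0.23), while SNHG32 and SNHG15 had values of 0.17 and -0.12. In RKO these other hosts moved both ways, with SNHG29 and SNHG32 higher and DANCR, SNHG3, SNHG15, SNHG16 and SNHG17 lower, names given after their values were seen. Of the mRNAs of 16 factors of nonsense-mediated decay 1 rose and 1 fell: SMG9, a regulator of the SMG1 kinase, was at -0.16, the endonuclease SMG6 at 0.10, and SMG1 itself, not called, at 0.15. In RKO 3 of the 16 rose, with SMG1 at 0.39, and 5 fell, beside 20.4% of all genes called higher and 21% lower. The test for a difference between lines called 4 of the 16, where 14.3% of genes were called. Of 15 mRNAs of translation factors and related proteins known for a TOP tract 1 rose and 2 fell, with HNRNPA1 at -0.27, TPT1 at 0.13 and NPM1, which encodes a nucleolar protein, at -0.14. Of 8 other nuclear lncRNAs 2 rose, MIR22HG (0.93) and HOTAIRM1 (0.42), and LINC-PINT had a value of 0.14. HOTAIRM1 was called in no single line, with -0.18 in RKO, -0.01 in SW48 and positive values in the other lines. Without both SW48 samples numbered 2 the lower counts were 15 of 17 for the paraspeckle and 11 of 15 for the snoRNP list.

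The second question was how the RNAs differ over time in spheroid culture and with the dye, in unsorted DLD1. NEAT1, MALAT1, SNHG1 and SNHG12 fell between day 1 and day 5 in the unlabeled cells and in the CFSE-labeled cells. GAS5, SNHG5, ZFAS1 and EPB41L4A-AS1 fell in the CFSE-labeled cells, and in the unlabeled cells none of these 4 passed. In the unlabeled cells 4 of 8 members were called lower where 13.1% of genes were called lower and 12.4% higher, and in the labeled cells 8 of 8 where 19.1% of genes were called lower. The day 1 groups of both dyes had more reads outside genes, with medians of 11.6% and 13.4% against 6.39% and 6.10% at day 5. Of the 5 markers of other cells that were counted, COL1A1 and LYZ could be tested, and COL1A1 fell in both (-0.94 and -1.395 in unlabeled and labeled cells). The part of either in the results was not tested.

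NEAT1 measured 389, 270.1, 583 and 145 CPM in the unlabeled cells at day 1 and 57.5, 39.9, 68.5 and 139.9 CPM at day 5. Replicate 4, the library that stood apart, was the lowest at day 1, but the days did not overlap. The fall had a log2 fold change of -2.18 (SE 0.46, adjusted p = 0.00778), and the value was -2.51 without that library. In the CFSE-labeled cells NEAT1 measured 317, 200.4, 588 and 546 CPM at day 1 and 33.9, 38.4, 89.4 and 55.97 CPM at day 5. The lowest day 1 sample was above the highest day 5 sample, and the fall had a log2 fold change of -2.95 (SE 0.48, adjusted p = 0.000365). MALAT1, the other nuclear RNA, measured 331, 238.1, 433 and 159 CPM and then 184, 105, 100 and 176 CPM in unlabeled cells. Its days overlapped through replicate 4 of day 1, and the fall had a log2 fold change of -1.04 (SE 0.29, adjusted p = 0.019), or -1.315 without that library. This call was lost without day 1 replicate 1 or 3 or day 5 replicate 2 or 3 (adjusted p = 0.0532 to 0.0778). In the labeled cells MALAT1 went from 244, 206, 377 and 369.5 CPM to 74.6, 119, 125 and 96.6 CPM, without overlap, with a log2 fold change of -1.56 (SE 0.29, adjusted p = 0.000954).

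SNHG12 had the largest change with time among the members by log2 fold change. In CFSE-labeled cells it measured 73.7, 58.4, 26.2 and 30.8 CPM at day 1 and 4.25, 4.23, 6.74 and 2.83 CPM at day 5. In unlabeled cells it measured 23.8, 23.8, 18.02 and 4.02 CPM and then 3.16, 2.81, 3.11 and 5.43 CPM. The value of replicate 4 at day 1 was within the day 5 range, and the other 3 were more than 3 times the highest day 5 sample. The falls had a log2 fold change of -3.42 (SE 0.47, adjusted p = 0.000152) with the dye and a log2 fold change of -2.26 (SE 0.47, adjusted p = 0.00754) without it. SNHG1 measured 268, 240.2, 126 and 131 CPM and then 49.8, 52.2, 45.3 and 33.8 CPM in labeled cells. In unlabeled cells it measured 103, 107, 86.8 and 33.9 CPM and then 40.2, 28.6, 21.3 and 27.3 CPM, again with replicate 4 of day 1 inside the day 5 range. Its falls had a log2 fold change of -2.13 (SE 0.32, adjusted p = 0.000265), and a log2 fold change of -1.49 (SE 0.32, adjusted p = 0.00794) in that order. Without the library labelled unlabeled day 1 replicate 4, the unlabeled values were -1.82 for SNHG1 and -2.66 for SNHG12, and 4 members had days that did not overlap in place of 1 (NEAT1 alone). Over all tested genes the share without overlap between days was 14.3% with that library and 48.7% without it, and the share called went from 25.5% to 42.1%.

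The other 4 hosts had smaller differences with time. GAS5 measured 103, 112, 92.3 and 105 CPM and then 211, 129.9, 109.6 and 112 CPM in unlabeled cells, where replicate 1 of day 5 lay far above the rest. Its log2 fold change of 0.445 (SE 0.18, adjusted p = 0.0729) did not pass. In labeled cells it measured 185, 189, 135 and 140.1 CPM and then 90.6, 95.9, 96.2 and 106 CPM, without overlap, with a log2 fold change of -0.78 (SE 0.18, adjusted p = 0.00319). ZFAS1 measured 112, 113, 43.4 and 45.7 CPM and then 51.7, 48, 36.96 and 43.9 CPM in labeled cells. Its day 1 samples split into a high pair (replicates 1 and 2) and a pair inside the day 5 range. The fall had a log2 fold change of -0.85 (SE 0.31, adjusted p = 0.0386), and the call was lost when any one of 6 of the 8 labeled libraries was left out, all but day 1 replicates 3 and 4 (adjusted p = 0.0529 to 0.149). In the unlabeled cells ZFAS1 had a log2 fold change of 0.615 (SE 0.31, adjusted p = 0.145). SNHG5 measured 47.1, 49.3, 20.6 and 24.3 CPM and then 20.5, 18.9, 15.2 and 17.3 CPM in labeled cells, with a log2 fold change of -1.02 (SE 0.27, adjusted p = 0.00703). EPB41L4A-AS1 went from 19.5, 19.2, 14.8 and 14.8 CPM to 9.29, 8.52, 10.4 and 11.7 CPM, without overlap, with a log2 fold change of -0.81 (SE 0.20, adjusted p = 0.00468). In the unlabeled cells SNHG5 and EPB41L4A-AS1 had log2 fold changes of 0.25 and 0.33, neither called.

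**Figure D3:**
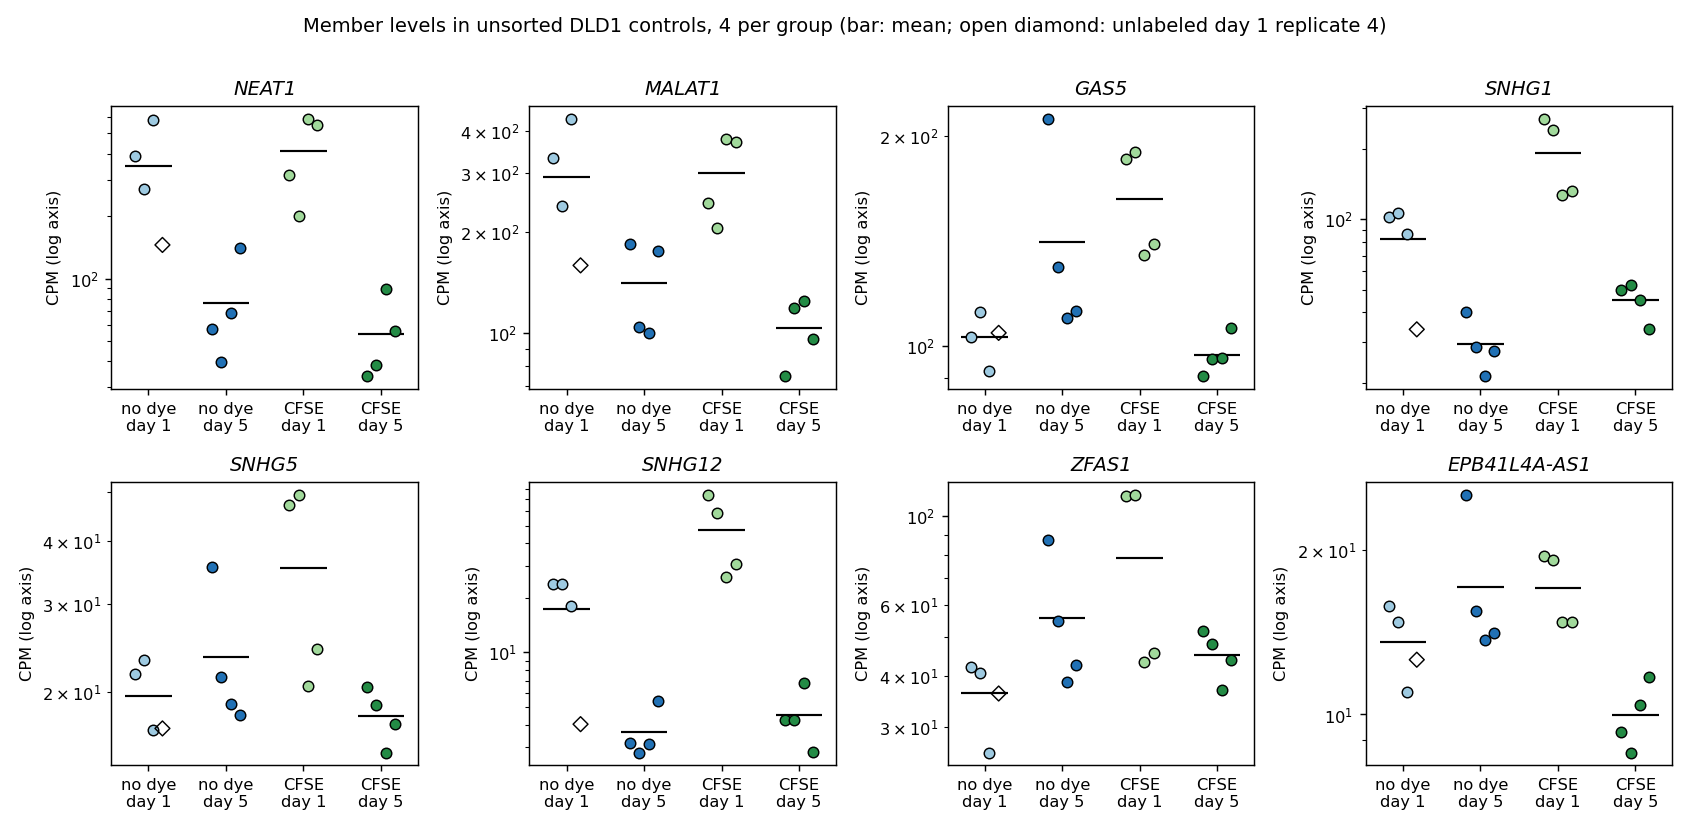
CPM of the 8 members on a log axis in the 16 unsorted DLD1 controls by dye and day, with 1 point per sample. NEAT1, MALAT1, SNHG1 and SNHG12 lie lower at day 5 with either dye status, and the CFSE day 1 samples of the hosts split into replicates 1 and 2 above replicates 3 and 4.

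The dye was compared with no dye at each day, in groups that the time comparisons also use. At day 1, GAS5, SNHG1, SNHG5, SNHG12 and ZFAS1 were higher in labeled cells, 5 of 8 members where 9.73% of genes were called higher. The largest difference was in SNHG12, with a log2 fold change of 1.48 (SE 0.43, adjusted p = 0.0224), followed by SNHG1 with a log2 fold change of 1.25 (SE 0.31, adjusted p = 0.0113). The library labelled unlabeled day 1 replicate 4 was the lowest of its group in both, at 4.02 and 33.9 CPM. The group medians were 20.9 and 94.6 CPM, and the size of both differences without that library is not given here. ZFAS1 had a log2 fold change of 1.15 (SE 0.31, adjusted p = 0.0165). NEAT1 and MALAT1 had values of 0.275 and 0.07, neither called. GAS5, SNHG1, SNHG12 and ZFAS1 did not overlap between labeled and unlabeled cells. The share of all genes without overlap was not computed for the dye comparisons or for time in labeled cells. The 5 calls rested on CFSE day 1 replicates 1 and 2, which were higher than replicates 3 and 4 in every host: without replicate 1 none of the 5 passed (adjusted p = 0.0522 to 0.11), and without replicate 2 SNHG1 alone passed. NEAT1 and MALAT1 were split the other way, with replicates 3 and 4 higher. SNHG5 also lost its call without unlabeled day 1 replicate 3 (0.81, adjusted p = 0.0705) or the library labelled replicate 4 (0.77, adjusted p = 0.0715).

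At day 5 EPB41L4A-AS1 was lower in labeled cells, 1 of 8 members where 2.03% of genes were called lower, with 9.29, 8.52, 10.4 and 11.7 CPM against 25.2, 15.5, 13.7 and 14.1 CPM. The groups did not overlap, unlabeled replicate 1 was far above the others, and the log2 fold change of -0.78 (SE 0.20, adjusted p = 0.0338) became -0.56 with an adjusted p of 0.0943 without it. The call was lost without 4 other libraries too, labeled replicates 1 and 2 and unlabeled replicates 3 and 4 (adjusted p = 0.0557 to 0.134). The test of whether the time difference itself depended on the dye called GAS5, with a log2 fold change of -1.23 (SE 0.25, adjusted p = 0.0314), 1 of 8 members where 0.152% of genes were called in that direction. All 8 members had negative values in this test, and the next smallest adjusted p was 0.0579, in EPB41L4A-AS1. The GAS5 call was lost without any one of 10 of the 16 libraries (adjusted p = 0.0514 to 0.0915).

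The same lists of mRNAs and lncRNAs were counted in the controls. Of all genes, 13.1% were called lower and 12.4% higher with time in unlabeled cells. In labeled cells these shares were 19.1% and 20.2%. Of the 15 TOP mRNAs 11 rose between day 1 and day 5 in unlabeled cells and none fell, among them EIF4B (0.88), PABPC1 (0.58) and EIF3H (0.71), with a list median of 0.57 against 0.04 over all genes. In labeled cells 1 of the 15 rose. Of 15 other snoRNA hosts 7 fell and 2 rose in unlabeled cells, where SNHG10 (-1.72) and SNHG3 (-1.315) were lower and SNHG29 (0.70) higher. In labeled cells 9 fell and 1 rose. Between dyes at day 1, where 9.73% of genes were called higher, 8 of the 15 snoRNP mRNAs and 6 other hosts were higher in labeled cells. Without the library labelled unlabeled day 1 replicate 4 these counts were 3 and 2. The share of genes called in either direction was 21.8% with that library and 18% without it. Of the 16 nuclear speckle mRNAs 6 fell in unlabeled and 8 in labeled cells, with PNN (-0.998), SRSF5 (-0.74) and SRSF2 (-0.58) among the former. Of the 17 paraspeckle mRNAs 4 fell and 1 rose in unlabeled cells, with CPSF7 (-0.53) and EWSR1 (-0.405) lower. Of the 16 decay factor mRNAs 6 fell and 1 rose in unlabeled cells, with those of the helicase DHX34 (-1.17), SMG5 (-0.58) and UPF3B (-0.735) lower. Of the snoRNP list 3 of 15 fell, NOLC1 (-0.44), NOP58 (-0.36) and NOP56 (-0.55), and of the other nuclear lncRNAs 2 of 8, LINC-PINT (-0.97) and MIR22HG (-1.41), while HOTAIRM1 had a value of -0.81. Without the library labelled unlabeled day 1 replicate 4, 42.1% of genes were called in the unlabeled time comparison, with 11 of 15 TOP mRNAs higher, 8 other hosts lower and 11 of 16 speckle mRNAs lower.

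With the line means removed, levels of some members moved together over the 48 sorted samples, which share libraries and sorts within a line. Pearson's r of log2 CPM was 0.78 between NEAT1 and MALAT1, 0.68 between SNHG1 and SNHG12, 0.69 between SNHG1 and ZFAS1, and 0.83 to 0.925 among GAS5, SNHG5, ZFAS1 and EPB41L4A-AS1. Without both SW48 samples numbered 2 (n = 46) these were 0.76, 0.67, 0.63 and 0.66 to 0.86. In the 16 controls r was 0.945 between NEAT1 and MALAT1 and 0.96 between SNHG1 and SNHG12, and 0.815 and 0.85 with the group means removed. NEAT1 and ZFAS1 had an r of -0.13 in the controls and of -0.64 with the group means removed. Among 9540 genes, the patterns most like NEAT1 over the line-centered samples were those of OGT, the O-GlcNAc transferase (r = 0.875), AHSA2P (0.864), GUSBP11 (0.847), ALS2CL (0.835) and the RNA helicase DDX39B (0.83). OGT also led for MALAT1 (0.726), before BRWD1 (0.713), SREK1 (0.705), GUSBP11 (0.702) and the mitochondrial pseudogene MTND2P28 (0.687). For GAS5 they were the hosts SNHG29 (0.93) and SNHG32 (0.915), the ribosomal protein mRNAs RPL26 (0.873) and RPS13 (0.854), and LETMD1 (0.858). For the mean of the 6 counted snoRNA hosts they were SNHG7 (0.909), CSNK2A2 (0.846), SNHG32 (0.838), CALCOCO2 (0.816) and CAMLG (0.786). Without both SW48 samples numbered 2, r was 0.813 to 0.887 for the 5 genes of the NEAT1 list and 0.638 to 0.699 for those of MALAT1. In the GAS5 list it was 0.777 to 0.888 for the hosts and ribosomal protein mRNAs and 0.707 for LETMD1. In the host list it was 0.852 for SNHG7, 0.751 for SNHG32, 0.711 for CSNK2A2, 0.651 for CALCOCO2 and 0.631 for CAMLG. These values describe likeness across samples that share libraries and carry no test.

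**Figure D4:**
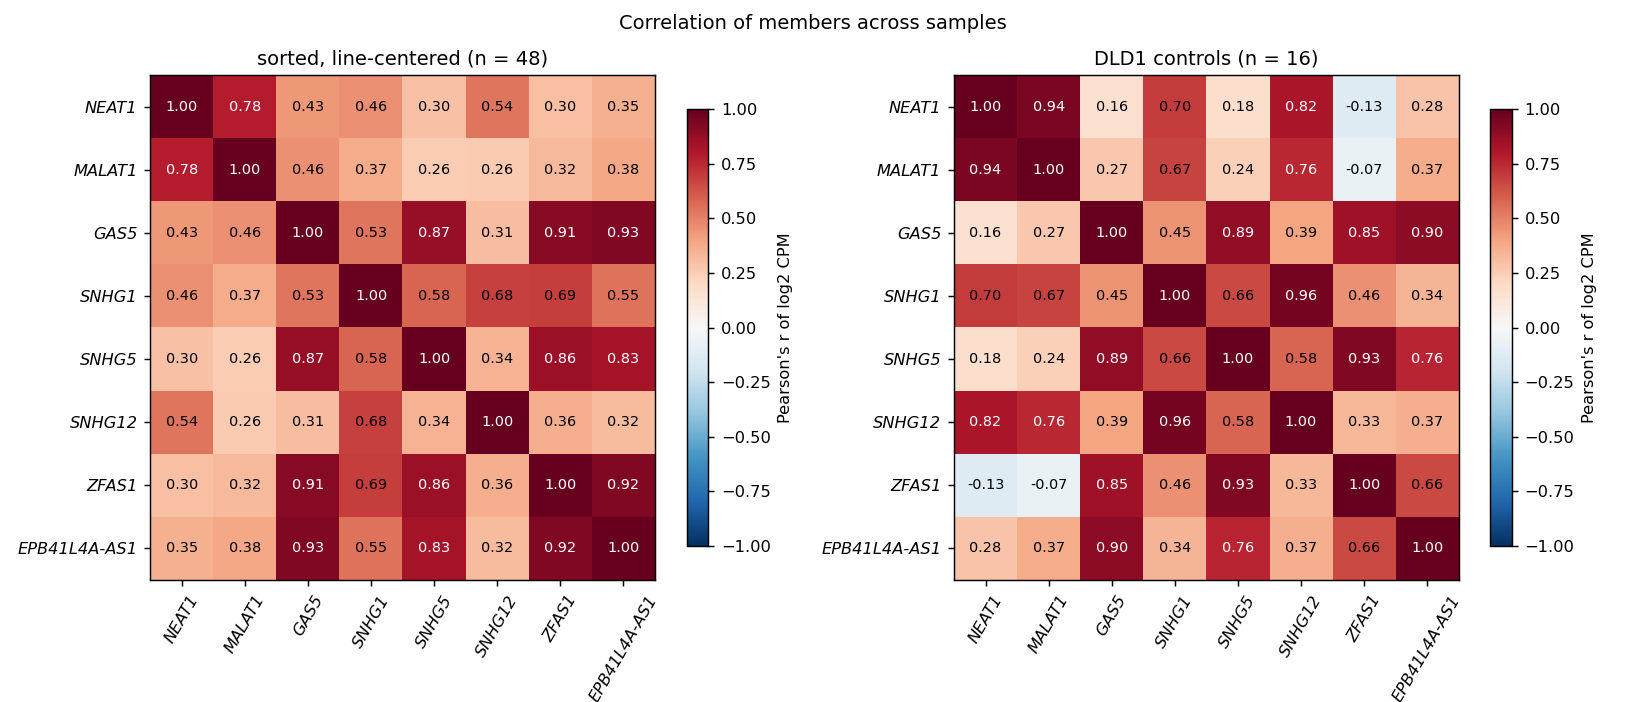
Pearson's r of log2 CPM between members. The left panel covers the 48 sorted samples, with the mean of each line removed. The right panel covers the 16 unsorted DLD1 controls, with no means removed. In the left panel NEAT1 with MALAT1 (0.78) and the block of GAS5, SNHG5, ZFAS1 and EPB41L4A-AS1 (0.83 to 0.925) stand out.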

How the data were processed

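RNA of 64 samples was sequenced as 50-base single-end reads by the authors, and the deposited files hold the authors' raw counts per gene for each sample. The submitters' processing notes name TopHat, HTSeq, DESeq and the build hg19; versions, annotation and strand setting are not given in the sources used here. Rows that name no gene (reads outside genes, ambiguous or not unique) were left out of library sizes and tests; reads outside genes made up 5.19 to 14.8% of a sample.

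A gene was tested where 4 or more samples of the fit held 10 or more counts, using edgeR 4.0.16 (R 4.3.3, TMM scaling, quasi-likelihood F test, Benjamini-Hochberg adjusted p of 0.05). Each line was fitted alone, the 6 lines together with a term for line, and the 4 control groups together. Standard errors are the absolute log2 fold change divided by the square root of F. Correlations used log2 CPM with a prior count of 2, over genes with a mean of at least 3. The fits were tested on simulated data with 200 changed genes. Members and gene lists were chosen with earlier results of these data known. All members are named, with the 3 genes of each other list that had the smallest p across the 6 lines or in the unlabeled time comparison, and the 5 genes most like NEAT1, MALAT1, GAS5 and the host mean. Some genes that these rules or the overlaps of exons would name are not reported here.

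Samples of the same number deviated together (every r above 0.1) in HT55 (0.141 to 0.387), SW48 (0.123 to 0.449), DLD1 (0.151 to 0.319), HCT15 (0.232 to 0.418) and the CFSE controls (0.12 to 0.232), and the pairing rests on this check alone. Alternatives were DESeq2 1.42.0, other filters and size factors, the replicate block, other sample sets and leaving out each sample. SNHG8 was not analysed here. Starts came from RefSeq on GRCh38.p14. With 4 samples a group, precision is set by the spread between samples at the depths given in the report.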

Additional observations from a re-analysis of the deposited data

Results flagged for a closer look

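Of 128 groups of 4 samples (8 members in 16 groups), 11 had a sample whose gap to the nearest other was large against the range of the group by Dixon's criterion, which chance meets in about 1 in 20 groups. SW48 sample number 2 accounted for 6 of them. In SW48-LRCs, replicate 2 was lowest in GAS5 (280.5 CPM, the others 522 to 538), SNHG5 (120.3 CPM, the others 199 to 208), ZFAS1 (113 CPM, the others 235 to 241) and EPB41L4A-AS1 (43.2 CPM, the others 104 to 107). In SW48 non-LRCs, replicate 2 was lowest in SNHG1 (55.9 CPM, the others 117 to 127) and SNHG5 (115 CPM, the others 222 to 234). Elsewhere, MALAT1 was highest in HT55-LRC replicate 2 (489 CPM, the others 269.5 to 304.5) and lowest in SW48-LRC replicate 4 (271 CPM, the others 372.6 to 391.6). ZFAS1 was highest in HCT15 non-LRC replicate 3 (65.9 CPM, the others 62.2 to 62.5). In unlabeled controls at day 5, EPB41L4A-AS1 was highest in replicate 1 (25.2 CPM, the others 13.7 to 15.5) and SNHG12 in replicate 4 (5.43 CPM, the others 2.81 to 3.16).

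The difference between lines in the LRC effect was called for SNHG1 (adjusted p = 0.0424), and the difference in the time effect between labeled and unlabeled cells was called for GAS5 (adjusted p = 0.0314), both by edgeR's quasi-likelihood test of the interaction.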

How the results depend on the processing

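No recomputed value turned the direction of a called member. Of the member results recomputed under alternatives, 1730 of 1880 kept their side of the threshold, 78 lost a call and 72 gained one, and the cause was not tested. The counts below are members called of the 8 tested, each followed by the share of all tested genes called in either direction. Across the 6 lines (1 called), the count was 2 with DESeq2 (23.9%), with at least 10 counts in every sample (30.3%), with median-of-ratios size factors (22.7%), without SW948 (19.5%) and without RKO LRC replicate 3 (22.0%). It was 0 without RKO (14.6%), DLD1 (17.3%) or HCT15 (23.2%), and 4 without SW48 (21.4%) or without both SW48 samples numbered 2 (23.0%). One fit of all 48 sorted samples called 2 members in RKO (5 in the fit of the line alone) with 26.4%, 0 in DLD1 (5) with 3.89% and 1 in HCT15 (2) with 4.2%. The test for a difference between lines (1) called 5 with no filter on low counts (7.86%), 2 with library sizes without TMM (14.7%) and 4 without both SW48 samples numbered 2 (18.5%). SW48 (0) had 2 without both of its samples numbered 2 (3.84%), and HCT15 had 4 with DESeq2 (3.79%). The dye at day 1 (5) had 1 when only its groups were fitted (10.8%), the dye at day 5 (1) had 2 with DESeq2 (10.5%), and the time difference depending on dye (1) had 4 with DESeq2 (4.29%) and 4 with no filter (1.48%).

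Leaving out each sample, or each number over the lines, gave 0 to 3 members across the 6 lines, 0 to 2 in HT55, 0 to 1 in SW948 and in SW48, 5 in RKO, 3 to 5 in DLD1, 0 to 2 in HCT15, 0 to 6 for the difference between lines, 3 to 5 for time in unlabeled cells, 7 to 8 for time in labeled cells, 0 to 5 for the dye at day 1, 0 to 1 for the dye at day 5 and 0 to 4 for the time difference depending on dye.

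With the replicate block, 4 members were called across the 6 lines (25.5% of genes), 7 in HCT15 (21.3%), 7 in DLD1 (33.8%), 5 for the difference between lines (33.6%), 5 for time in unlabeled cells (30%) and 4 for the time difference depending on dye (1.47%). It changed no call in HT55, SW948, RKO, SW48, time in labeled cells or the dye at either day. The numbers did not pair the samples in SW948, RKO or the unlabeled controls, nor across dyes on the same day, where each sample correlated best with its own number in 0 to 3 of 4 cases. In the sets taken as paired this was 2 in DLD1 and the CFSE controls, 3 in HT55 and HCT15 and 4 in SW48. The mean r of the same number was 0.211 across dyes at day 5 and 0.214 in DLD1. The division thus rests on the rule that every r exceed 0.1. Replicates 1 and 2, and 3 and 4, were nearest to each other within both populations of DLD1 and HCT15, and within the CFSE controls at both days. The tests took the 4 samples of a group as separate, and the labels do not say whether such pairs shared a culture.

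SNHG12, the lowest member, had at least 43 counts in every sample. Files hold gene counts only, so isoforms of NEAT1 were not separated.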
